A study of Homo sapiens with 30 samples.

Results

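The step from 12 h to 24 h of activation was examined in Jurkat cells edited in SLAMF6 (KO), by setting the 3 libraries numbered B10, B11 and B12 at 24 h against the 3 libraries numbered B7, B8 and B9 at 12 h. These 6 of the 30 libraries of the series were chosen by their titles, and all 21554 expressed gene symbols of 54300 in the files were tested. Jurkat E6-1 is a human T cell leukaemia line. The KO cells carry an edit of SLAMF6 that the labels name as a knockout of isoform 1 and, in the protocol, as a deletion called 17-65. The series title speaks instead of isoform 3 being overexpressed, and the labels were followed. Unedited Jurkat E6-1 cells (WT), with libraries A7 to A9 at 12 h and A10 to A12 at 24 h, served for comparison. All 12 libraries came from cells stimulated with 200 ng/ml of the phorbol ester PMA and 300 ng/ml of the calcium ionophore ionomycin. That protocol was written for a cytokine assay, and hours were taken from it as the unit of the unitless time labels. How many edited clones there were, and whether libraries of a group are separate cultures, is not given in the labels. The p-values therefore measure the spread between libraries within the groups, estimated from all 30 libraries, and that spread may be technical.

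PMA activates protein kinase C and ionomycin raises intracellular calcium, so that together they drive NFAT, AP-1 and NF-kB without the T cell receptor being engaged. SLAMF6 is a receptor of the SLAM family that lymphocytes use to recognise each other, and its tail recruits the adaptor SAP and the phosphatases SHP-1 and SHP-2. Activated T cells first induce early transcription factors and cytokines, and later change their surface receptors, their metabolism and their cell cycle. Jurkat cells divide before stimulation, unlike resting T cells from blood.

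The 6 KO libraries held between 16.3 and 21.1 M counts each, and levels are given in counts per M (CPM). The T cell markers CD3D, CD3E, CD3G, CD247, CD2, CD28, LCK, ZAP70 and PTPRC (CD45) were expressed in all 6, at 63.4 CPM or more, while CD7 was at 6.08, 5.73 and 4.10 CPM at 12 h and 5.08, 4.34 and 5.28 CPM at 24 h. CD3D, a chain of the T cell receptor complex, stood at 1485, 1325 and 1565 CPM at 12 h and at 1571, 1851 and 1396 CPM at 24 h, and PTPRC at 739, 840.1 and 901 CPM and then 588, 554 and 412 CPM. Libraries of 1 time differed by a root mean square of 0.702 to 0.766 on the log2 scale at 12 h and 0.699 to 0.765 at 24 h, and libraries of different times by 0.829 to 0.962. Library B7 stood apart from B8 and B9 in many genes. It was the 12 h library nearest to the 24 h levels in 51.4% of the genes that rose and in 55.6% of those that fell. For B8 these shares were 25.3% and 25.3%, and for B9 23.3% and 19.1%. Over all genes B7 lay nearer to the KO libraries of 6 h, at 0.760 to 0.820, than to those of 24 h, at 0.829 to 0.848, as did B8 and B9. Library B12 lay nearer to the 3 KO libraries of 36 h, at 0.744 to 0.788, than B10 and B11 did, at 0.803 to 0.832.

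SLAMF6 itself (GRCh38 chr1:160485030-160523262) was measured at 50.02, 59.3 and 48.00 CPM in B7, B8 and B9 at 12 h and at 109.7, 113 and 147 CPM in B10, B11 and B12 at 24 h. The 2 sets of libraries did not overlap, and the gene rose by 1.23 ± 0.13 (SE) on the log2 scale (adjusted p = 1.1e-08, edgeR's quasi-likelihood test, here and below with Benjamini-Hochberg adjustment over all tested genes). In WT it stood at 53.3, 50.97 and 49.5 CPM at 12 h and 65.2, 73.9 and 97.4 CPM at 24 h, a log2 change of 0.62 ± 0.13 (adjusted p = 0.001). The difference between the 2 steps, 0.61 ± 0.19, did not pass the test (adjusted p = 0.11), but DESeq2 called it with all libraries, at 0.66 (adjusted p = 0.045), as did edgeR without A12, at 0.79 (adjusted p = 0.011). Counts per gene do not separate isoforms, so these values do not check the edit.

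Between 12 h and 24 h, 3121 genes changed in KO cells at an adjusted p under 0.05, 14.5% of those tested. Of these, 1354 were higher at 24 h (6.28% of genes tested) and 1767 lower (8.2%). At least 2-fold changes numbered 522 higher and 607 lower, and at least 4-fold changes 197 and 142. The median log2 change over all tested genes was -0.02. Without regard to any test, the 3 libraries of 24 h were all above the 3 of 12 h in 2642 genes (12.3%) and all below them in 3260 (15.1%). Without B7 and B12 together, an alternative chosen after seeing the data, 2460 genes were called, of which 2236 were among the 3121 and none had changed sign. The falls numbered 1163 when B9 was left out.

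The 12 largest rises among called genes that reached a mean of at least 10 CPM included several secreted and surface proteins. They were led by SDC4 (syndecan-4, a heparan sulfate proteoglycan), XCL2 and XCL1 (the lymphotactins, chemokines for dendritic cells that carry XCR1), CD200 (ligand of an inhibitory receptor on myeloid cells) and ITGAD (integrin alpha-D). SDC4 was at 1.56, 0.241 and 0.324 CPM in the libraries of 12 h and at 31.7, 30.03 and 68.8 CPM at 24 h, a log2 change of 5.92 ± 0.57 (adjusted p = 1.9e-09). CD200 (GRCh38 chr3:112332347-112362812) went from 9.68, 0.289 and 1.08 CPM to 143, 133 and 273 CPM, a log2 change of 5.62 ± 0.52 (adjusted p = 5e-10). In both genes B7 was the highest library of 12 h and B12 the highest of 24 h. That B7 lay below every library of 24 h was a condition for the list. ITGAD, at 0.0973, 0.241 and 0.324 CPM at 12 h, reached 6.65, 10.8 and 13.98 CPM at 24 h and a mean of 65.5 CPM at 36 h, and its log2 change over the step was 5.55 ± 0.44 (adjusted p = 1.2e-11). ZBTB16, which encodes PLZF, a transcription factor of innate-like T cells, rose from 0.778, 0.481 and 0.593 to 17.6, 14.7 and 16.99 CPM, by 4.72 ± 0.31 (adjusted p = 1.4e-13). Its libraries were close together within each time. The other genes among the 12 largest rises were GRIK4 (a kainate receptor subunit), ARNT2 (a bHLH-PAS transcription factor), the pseudogene CYP4F35P, IL1RN (the interleukin-1 receptor antagonist), EDARADD (adaptor of the ectodysplasin receptor) and SERPINA1 (alpha-1 antitrypsin), with log2 changes between 4.63 and 5.31. SERPINA1 rose from 1.31, 0.770 and 1.29 to 19.2, 21.2 and 43.01 CPM and stood at a mean of 267 CPM at 36 h.

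Among the 12 largest falls were GZMB (granzyme B, a granule protease of killer cells), IL7R (the interleukin-7 receptor chain), 2 replication histones and 2 genes of mitosis. MUC2, a gel-forming mucin, fell from 19.2, 16.3 and 15.9 CPM to 0.0540, 0.482 and 0.593 CPM, and its log2 change was -5.48 ± 0.32 (adjusted p = 1.4e-14). GZMB (GRCh38 chr14:24630954-24634267) was at 1278, 521 and 630.5 CPM at 12 h and 47.1, 58.4 and 106 CPM at 24 h, a change of -3.52 ± 0.32 (adjusted p = 3e-10), after a mean of 2560.1 CPM at 6 h. B7 was the highest library of 12 h for GZMB and B12 the highest of 24 h, and no overlap between the times was again a condition for the list. IL7R went from 15.96, 18.3 and 21.8 to 1.95, 3.56 and 3.31 CPM, by -2.67 ± 0.27 (adjusted p = 3.8e-09). ATP6V0A4, a subunit of the vacuolar proton pump, went from 19.4, 25.6 and 24.2 to 0.540, 1.45 and 1.09 CPM, by -4.50 ± 0.27 (adjusted p = 1.7e-14). It had stood at a mean of 134 CPM at 6 h. SH3RF2 (a RING and SH3 domain protein), HIST1H3G, HIST1H4C, KIF20A (a mitotic kinesin), CLU (the chaperone clusterin), CHRNA6 (a nicotinic receptor subunit), CDCA2 (a phosphatase-targeting protein of mitosis) and PGLYRP4 (a peptidoglycan recognition protein) completed the 12, with log2 changes between -3.56 and -2.41.

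**Figure D1:**
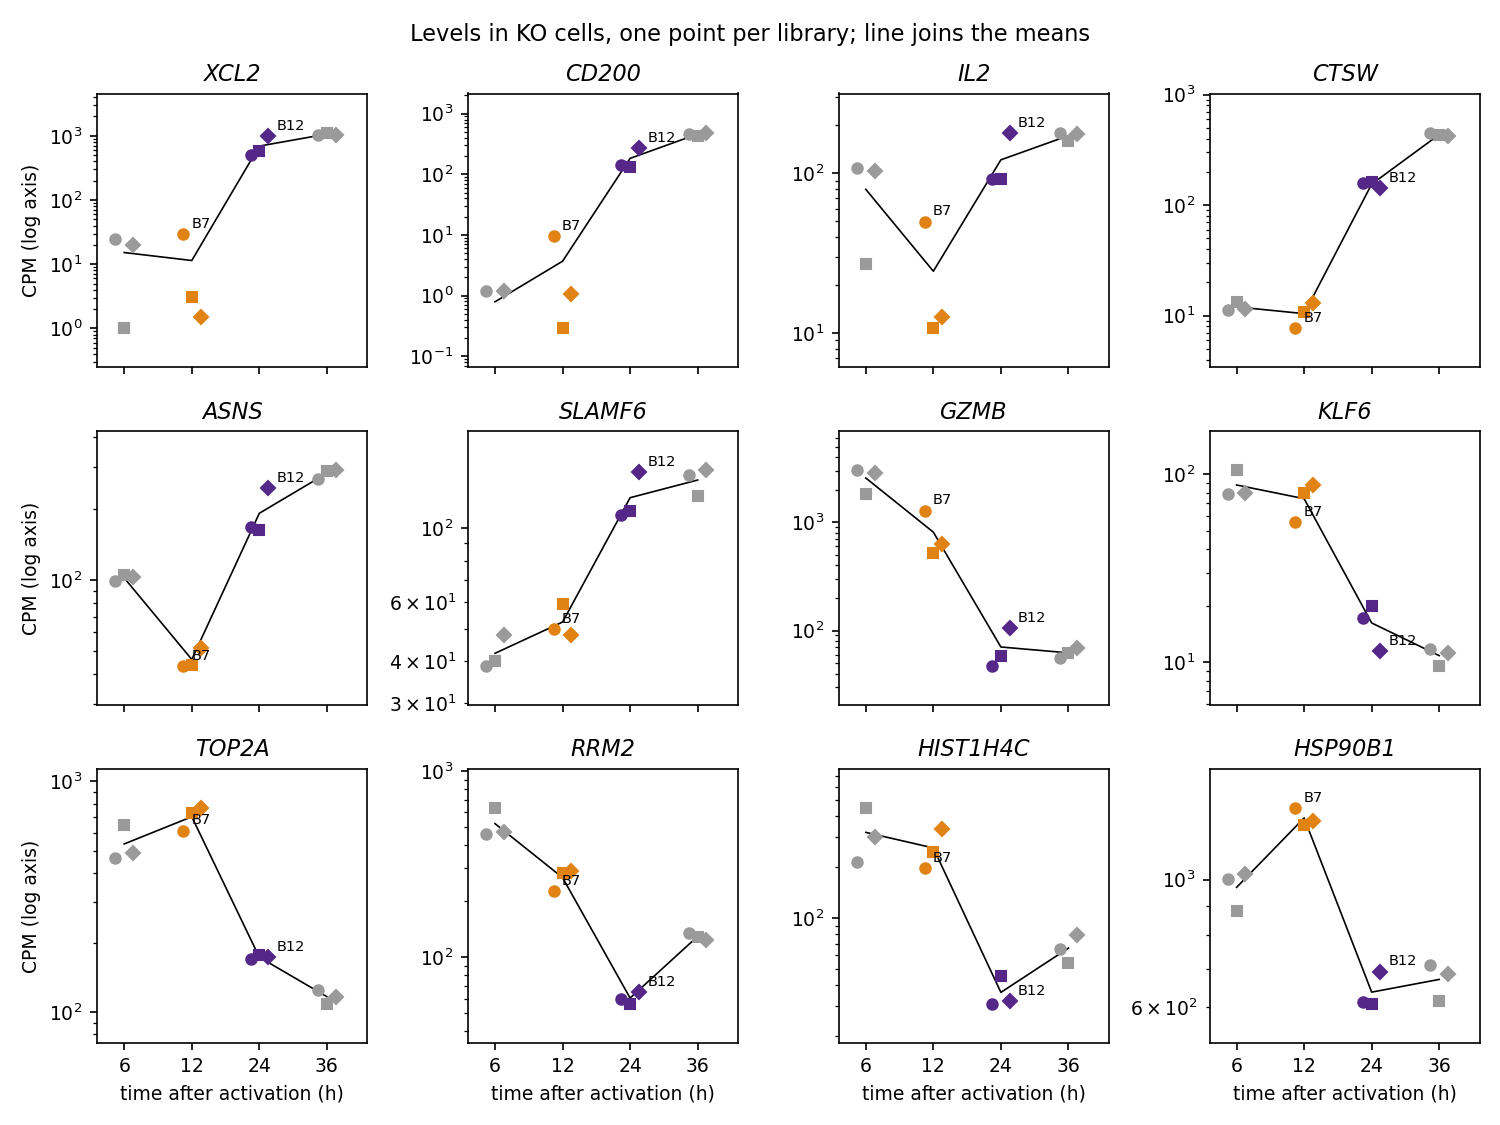
TMM-scaled CPM on log axes for 12 genes in KO cells at 6, 12, 24 and 36 h, with 1 point per library (circle, square and diamond in the order of the titles) and a line through the means. Orange points are 12 h and purple points 24 h; XCL2, CD200, IL2, CTSW, ASNS and SLAMF6 are higher and the other 6 genes lower in all 3 libraries of 24 h, and B7 and B12 are marked.

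Every gene tested of the list for G2 phase and mitosis fell. The 32 genes encode the cyclins, kinases, motor proteins and checkpoint proteins that carry a cell through division. All 32 were lower at 24 h, against 8.2% of all genes, with a median log2 change of -1.80 and a range from -2.74 to -0.75. In each of them the 3 libraries of 24 h lay below all 3 of 12 h, and all 32 were also called in each of the 12 alternatives, those without B7 or B12 included. BUB1B, a kinase of the spindle checkpoint, was at 108, 123 and 111 CPM at 12 h and 30.7, 27.3 and 32.00 CPM at 24 h, a log2 change of -1.92 ± 0.10 (adjusted p = 9.1e-16). TOP2A, the topoisomerase that untangles sister chromosomes, went from 611, 729.5 and 766 to 169, 177 and 172 CPM, by -2.02 ± 0.11 (adjusted p = 9.8e-16). NUSAP1, a spindle protein, changed by -2.10 ± 0.12 (adjusted p = 6.7e-15), and CCNA2 (cyclin A2) by -1.96 ± 0.11 (adjusted p = 1.2e-14). KIF20A had the largest change of the list, from 66.3, 82.01 and 99.02 to 12.7, 12.7 and 11.6 CPM. The mean of TOP2A was 535 CPM at 6 h, 702 CPM at 12 h, 173 CPM at 24 h and 117 CPM at 36 h. In bulk libraries, fewer cells in a phase and less RNA per cell cannot be told apart. In WT cells all 32 fell as well, with a median of -1.52, and for none of the 32 was the difference between the KO and the WT step called (226 genes, 1.05% of all tested, were). At an unadjusted p under 0.05 it was lower in KO for 13 of the 32 and higher for none. Over all 21554 tested genes, 2713 passed that threshold in either direction. DESeq2 called none of the 32. The difference of KIF20A was called without B7 and without the filter on low counts, and that of NUSAP1 without B7.

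Promoters of late cell cycle genes are known for CHR elements and CCAAT boxes, and the 250 bases before the start are shown for the 3 members with the smallest p that the RefSeq table holds. They are from GRCh38.p14 and read 5′ to 3′ on the strand of the gene, with the CHR letters TTTGAA and the letters CCAAT in capitals on either strand (TTCAAA and ATTGG on the other). BUB1B is at chr15:40160819-40161068 (plus strand), TOP2A at chr17:40417897-40418146 (minus strand) and NUSAP1 at chr15:41332631-41332880 (plus strand).
BUB1B: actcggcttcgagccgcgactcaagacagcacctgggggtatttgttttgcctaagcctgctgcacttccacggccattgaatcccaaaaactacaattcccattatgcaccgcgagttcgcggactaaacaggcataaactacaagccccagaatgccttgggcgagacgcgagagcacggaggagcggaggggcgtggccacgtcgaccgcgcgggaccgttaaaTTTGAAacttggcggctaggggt
TOP2A: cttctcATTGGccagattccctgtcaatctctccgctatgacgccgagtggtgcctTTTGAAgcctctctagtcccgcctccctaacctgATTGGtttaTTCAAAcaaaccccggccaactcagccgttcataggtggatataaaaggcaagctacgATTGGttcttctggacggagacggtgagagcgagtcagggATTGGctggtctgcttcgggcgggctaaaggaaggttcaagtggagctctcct
NUSAP1: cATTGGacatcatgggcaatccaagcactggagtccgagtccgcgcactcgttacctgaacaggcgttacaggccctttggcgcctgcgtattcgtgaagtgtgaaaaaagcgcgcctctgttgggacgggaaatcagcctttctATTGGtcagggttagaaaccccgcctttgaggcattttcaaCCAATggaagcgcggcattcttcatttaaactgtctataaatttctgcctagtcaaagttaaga
BUB1B has 1 CHR match, beginning 23 bases before the start, and no CCAAT. TOP2A has 2 CHR matches and 4 CCAAT boxes, the nearest of which begins 53 bases before the start. NUSAP1 has no CHR match and 3 CCAAT boxes. Of the 32 genes, 26 matched the table by symbol; 13 of these (50%) held a CHR match and 21 (80.8%) a CCAAT box, against 13.6% and 33.0% of all 27305 promoter windows of that length. A match is a description of the letters only.

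Genes of S phase and histone genes fell as well. Of 32 genes of DNA replication, 23 (71.9%) fell and 1 (3.125%) rose, with a median log2 change of -0.70. The shares of all tested genes, 8.2% lower and 6.28% higher, are the comparison for this list and every list below. RRM2, the regulated subunit of ribonucleotide reductase, was at 227, 285 and 291 CPM at 12 h and 59.7, 56.4 and 65.3 CPM at 24 h, by -2.15 ± 0.11 (adjusted p = 7.5e-16). GINS1 and CDC45, parts of the replicative helicase, changed by -1.37 ± 0.11 and -1.07 ± 0.11 (adjusted p = 4.3e-11 and 7.9e-09), and ORC6, of the origin recognition complex, by -1.10 ± 0.12 (adjusted p = 8.6e-09). The 1 rise was MCM6, a helicase subunit named after its value was seen, at 155, 148 and 155 CPM and then 164, 178 and 228 CPM (log2 0.32 ± 0.10, adjusted p = 0.037), and it was not called without B7, B8, B9 or B12. In WT 17 of the 32 fell and none rose.

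Genes of the histone clusters, a list added after their values were seen, package new DNA during replication. Of 89 such symbols 45 passed the filter on low counts, and 28 of these fell and none rose by edgeR, with a median of -1.58; none rose at an unadjusted p under 0.05 or by DESeq2. Without B12 the count was 18 of 48, and without any other single library it was between 21 and 29. HIST1H4C was at 197, 246 and 337 CPM at 12 h and 30.9, 45.3 and 32.05 CPM at 24 h, a log2 change of -2.85 ± 0.24 (adjusted p = 4.9e-11). HIST1H3G went from 10.6, 19.97 and 18.6 to 1.03, 3.32 and 1.14 CPM, by -3.20 ± 0.33 (adjusted p = 5.5e-09), and HIST1H1B, a linker histone, from 14.01, 16.7 and 17.5 to 3.46, 3.92 and 3.75 CPM, by -2.11 ± 0.25 (adjusted p = 6.8e-08). Histone genes are near copies of each other, so how reads were shared between them is uncertain. Most replication histone messages lack a poly(A) tail, and whether the libraries were poly(A)-selected is not given in the labels.

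Regulators of the G1 phase did not move as 1 group: of 22 tested, 3 (13.6%) rose and 5 (22.7%) fell, against 6.28% and 8.2% of all tested genes. CDKN1A, the p53 target that encodes the inhibitor p21, fell from 89.3, 104 and 106 to 24.04, 21.9 and 33.5 CPM, by -1.91 ± 0.18 (adjusted p = 4.9e-10). GADD45B, a stress-induced regulator, changed by -1.91 ± 0.33 (adjusted p = 6.2e-05). CCND2 (cyclin D2) rose from 14.5, 5.63 and 4.69 to 27.7, 28.2 and 46.1 CPM, by 2.03 ± 0.30 (adjusted p = 4.6e-06), and BTG2, an antiproliferative gene, by 1.11 ± 0.15 (adjusted p = 1e-06). For CCND2, B7 was again the highest of the 12 h libraries.

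Cytokines and chemokines rose more often than they fell. Of 34 tested, 12 (35.3%) rose and 4 (11.8%) fell, against 6.28% and 8.2% of all tested genes, with a median log2 change of 0.40. The rises included interleukin-2 and 7 chemokines, and the falls were IL8, LTB, TNFSF10 and OSM. XCL2 (GRCh38 chr1:168540765-168543997) was at 29.7, 3.03 and 1.51 CPM in B7, B8 and B9 and at 506, 570.3 and 996 CPM in B10, B11 and B12, a change of 5.91 ± 0.68 (adjusted p = 4.5e-08). XCL1 stood at 62.6, 5.34 and 5.88 CPM at 12 h and 763, 839 and 1523 CPM at 24 h, by 5.40 ± 0.69 (adjusted p = 3.1e-07). The 2 genes are near-identical copies on chromosome 1, and the split of reads between them is uncertain. IL2, the growth factor of T cells, was at 49.9, 10.7 and 12.6 CPM at 12 h and 92.4, 92.7 and 179 CPM at 24 h. Its log2 change was 2.31 ± 0.44 (adjusted p = 0.00024), the libraries of the times did not overlap, and its mean at 6 h had been 79.4 CPM. CCL5, a chemokine of memory and effector T cells, was at 0.341, 0 and 0 CPM at 12 h, 7 counts in all, and at 5.40, 5.97 and 6.47 CPM at 24 h (log2 5.60 ± 0.68, adjusted p = 2e-07).

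IFNG, the macrophage-activating cytokine, was at 19.5, 5.05 and 4.31 CPM and then at 7.46, 11.7 and 17.04 CPM. Its groups overlapped and its log2 change of 0.33 ± 0.43 did not pass the test (adjusted p = 0.72), but without B7 it was called, at 1.36 (adjusted p = 0.025). TNFSF10, which encodes the death ligand TRAIL, fell from 195, 349 and 383 to 106, 118 and 87.1 CPM, by -1.57 ± 0.22 (adjusted p = 2e-06). Further members, named after their values were seen, were CCL4 (a chemokine), CSF2 (GM-CSF) and LTB (lymphotoxin beta). CCL4 rose from 97.01, 10.1 and 9.22 to 271, 323 and 556 CPM, and it too has near-identical copies in the genome. CSF2 rose from 12.8, 2.45 and 3.99 to 44.9, 50.3 and 81.5 CPM, by 3.19 ± 0.45 (adjusted p = 2.8e-06). LTB fell from 8.61, 30.4 and 24.4 to 5.67, 5.49 and 2.42 CPM, by -2.23 ± 0.40 (adjusted p = 9.4e-05). In XCL1, XCL2, IL2, CCL4 and CSF2 library B7 was 3 times or more above B8 and B9 at 12 h and B12 was the highest library at 24 h, while in LTB both lay lowest at their time. Without B7 and B12 together, 13 cytokine genes rose and 3 fell, and without B9 2 fell.

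The window before XCL2, at chr1:168543998-168544247 of GRCh38.p14 on the minus strand, is shown because XCL2 had the smallest p among the called cytokines in the RefSeq table. Capitals mark the NFAT core letters GGAAA, or TTTCC on the other strand.
XCL2: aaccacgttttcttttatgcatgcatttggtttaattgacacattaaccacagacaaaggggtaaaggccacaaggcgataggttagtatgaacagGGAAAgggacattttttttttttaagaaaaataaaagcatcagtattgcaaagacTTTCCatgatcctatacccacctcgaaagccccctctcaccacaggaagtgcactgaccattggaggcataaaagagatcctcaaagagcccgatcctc
It holds 2 such matches, which begin 154 and 99 bases before the start, and no AP-1 match (TGANTCA on either strand). Of 37 listed cytokines 26 matched the table by symbol; 22 (84.6%) held the NFAT core, against 56.0% of all windows, and 2 (7.69%) the AP-1 letters, against 6.60%.

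Of 12 tested inhibitory receptors and their ligands, which restrain T cells, 4 rose and none fell by edgeR, with a median of 0.66; none fell at an unadjusted p under 0.05 or by DESeq2. These 4 were CD200, described above, BTLA, CD160 and PDCD1, and they were called in each of the 12 alternatives. PDCD1, which encodes PD-1, was at 64.03, 11.2 and 8.74 CPM at 12 h and 177, 159 and 179 CPM at 24 h, by 2.61 ± 0.37 (adjusted p = 2.6e-06). BTLA, a receptor for HVEM, went from 10.8, 2.55 and 1.83 to 56.8, 53.3 and 79.2 CPM, by 3.63 ± 0.41 (adjusted p = 3e-08). CD160, another HVEM receptor, went from 0.438, 0.866 and 0.863 to 6.92, 9.04 and 12.6 CPM, by 3.71 ± 0.49 (adjusted p = 5.8e-07). PDCD1 and BTLA had B7 far above B8 and B9 at 12 h, and CD160 did not. CTLA4 stayed under 1 CPM as a mean in both groups, at 0.181 ± 0.135 and 0.452 ± 0.296 CPM (SD, n = 3), and was not called (adjusted p = 0.24).

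Activation receptors were split, with 8 of 25 (32.0%) higher and 6 (24.0%) lower. TNFRSF9 (4-1BB, a costimulatory receptor) rose from 8.37, 2.50 and 2.32 to 26.6, 34.4 and 54.2 CPM, by 3.12 ± 0.35 (adjusted p = 5.1e-08). The shared interleukin-2 and interleukin-15 receptor chain IL2RB rose from 1.90, 2.31 and 2.70 to 10.00, 10.6 and 12.4 CPM, by 2.26 ± 0.25 (adjusted p = 1.9e-08). The high-affinity chain IL2RA, named after its value was seen, fell from 32.8, 20.6 and 23.9 to 6.86, 6.57 and 6.62 CPM, by -1.95 ± 0.24 (adjusted p = 2.2e-07). CD83 fell from 119, 111 and 118 to 53.2, 57.1 and 50.96 CPM, by -1.11 ± 0.09 (adjusted p = 3.8e-11). CD69, an early activation marker, was at 922, 573 and 631 CPM and then 859, 912 and 1026 CPM and was not called (log2 0.40 ± 0.17, adjusted p = 0.13). Without B7, whose level was the highest of 12 h, its change was 0.63 (adjusted p = 0.011) and was called. The 8 rises of the list became 5 without B8 and 5 without B9.

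Of 17 cytotoxic granule genes, 4 (23.5%) rose and 2 (11.8%) fell. CTSW (cathepsin W, a protease of killer cells) had libraries close together at both times, 7.69, 10.7 and 12.9 CPM and then 158, 163 and 144 CPM, and rose by 3.90 ± 0.16 (adjusted p = 4.8e-19). PRF1 (perforin, named after its value was seen) rose from 10.4, 20.02 and 26.9 to 47.7, 46.5 and 59.8 CPM, by 1.43 ± 0.34 (adjusted p = 0.0026), and SERPINB9, the inhibitor of granzyme B, by 1.35 ± 0.19 (adjusted p = 2.5e-06). GZMH fell from 10.9, 3.99 and 6.36 to 0.378, 0.543 and 1.73 CPM, by -2.96 ± 0.43 (adjusted p = 3.6e-06), in the direction of GZMB, while GZMA was at 267 ± 20.7 and 292 ± 86.5 CPM (SD, n = 3) and was not called (adjusted p = 0.71).

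In the SLAM family and its adaptors, 3 of 14 tested genes (21.4%) rose and 1 (7.14%) fell, against 6.28% and 8.2% of all tested genes. The share of falls is thus near that of all genes. Beside SLAMF6, CD48, the ligand of CD244, rose from 244, 172 and 182 to 299, 306 and 418 CPM, by 0.77 ± 0.18 (adjusted p = 0.0017). PTPN11, which encodes SHP-2, rose from 218, 137 and 126 to 288, 254 and 230.5 CPM, by 0.68 ± 0.14 (adjusted p = 0.00063). SLAMF7 fell from 121, 81.3 and 81.4 to 42.6, 48.5 and 77.3 CPM, by -0.75 ± 0.20 (adjusted p = 0.0084), a call that was lost without B7, without B10 and without B11. The 3 rises became 5 without B7, and 2 genes fell without B7 and B12 together. SH2D1A, the adaptor SAP, was at 126 ± 21.1 and 132 ± 51.03 CPM (SD, n = 3) and was not called (adjusted p = 0.86).

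**Figure D2:**
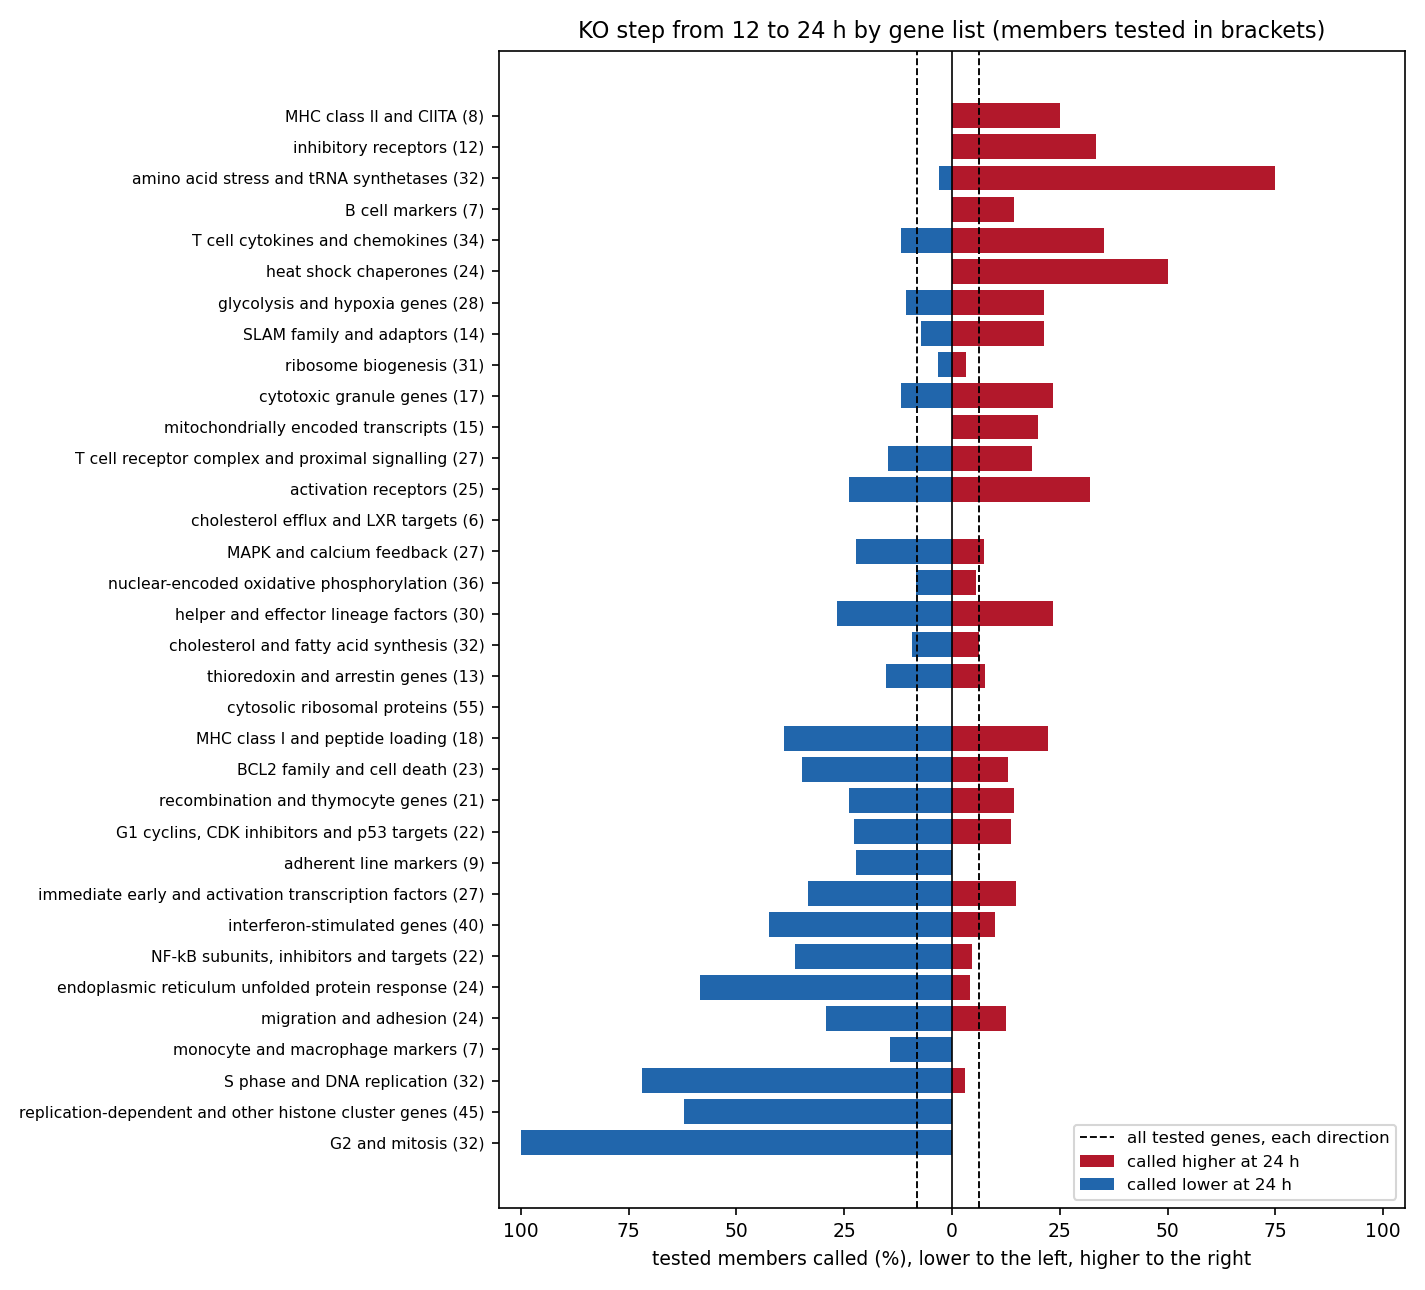
Share of tested members called higher (red, to the right) and lower (blue, to the left) in the KO step, in percent, for each list with 5 or more tested genes, ordered by median log2 change, with the number tested in brackets. Dashed lines mark the shares over all tested genes, 6.28% higher and 8.2% lower; the list of G2 and mitosis reaches 100% lower and the list of amino acid stress and tRNA synthetases 75.0% higher.

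Early transcription factors of activation fell more often than they rose. Of 27, 9 (33.3%) fell and 4 (14.8%) rose, with a median of -0.31. KLF6 fell from 55.5, 79.1 and 88.02 to 17.1, 19.96 and 11.5 CPM, by -2.20 ± 0.18 (adjusted p = 2.1e-11), and KLF10, a target of TGF-beta, from 126, 181 and 173 to 55.4, 46.97 and 47.95 CPM, by -1.67 ± 0.16 (adjusted p = 8e-10). JUN, an AP-1 subunit, went from 8.85, 10.2 and 11.8 to 2.70, 2.11 and 1.98 CPM, by -2.18 ± 0.23 (adjusted p = 6.1e-09). EGR1 changed by -1.005 ± 0.15 (adjusted p = 4.5e-06) and still stood at 293, 328 and 231 CPM at 24 h. The 4 rises were EGR2, NR4A2, NAB2 and NFATC1; 7 rose without B7, 2 without B8 and 2 without B12. Of 22 NF-kB subunits, inhibitors and targets, 8 (36.4%) fell and 1 (4.55%) rose, against 8.2% and 6.28% of all tested genes. BIRC3, which encodes the apoptosis inhibitor cIAP2, fell from 368, 417 and 459 to 123, 112 and 144 CPM, by -1.71 ± 0.13 (adjusted p = 1e-11), and NFKBIA, the inhibitor of NF-kB, from 197, 176 and 180.4 to 108, 97.7 and 74.7 CPM, by -0.98 ± 0.14 (adjusted p = 3.4e-06). The 1 rise was TNFAIP3 (A20), which was not called without B7 and B12 together.

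Lineage factors of helper and effector T cells moved both ways, with 7 of 30 (23.3%) higher and 8 (26.7%) lower. Beside ZBTB16, LEF1, a partner of beta-catenin, rose from 195, 219.9 and 259 to 539.7, 522 and 390.1 CPM, by 1.11 ± 0.13 (adjusted p = 4.9e-08). Its relative TCF7 fell from 126, 101 and 78.3 to 44.3, 42.3 and 13.7 CPM, by -1.61 ± 0.24 (adjusted p = 4.1e-06). RUNX3, a factor of cytotoxic T cells, fell from 30.7, 30.6 and 37.2 to 12.3, 10.8 and 5.33 CPM, by -1.79 ± 0.20 (adjusted p = 1.7e-08). TBX21, which encodes T-bet, was at 33.8, 17.6 and 14.7 CPM and then 12.1, 10.1 and 18.2 CPM, with overlapping libraries, and was not called (log2 -0.71 ± 0.31, adjusted p = 0.14). Without the filter on low counts it was called, at -0.67 (adjusted p = 0.0091), and in no other alternative. That change is close to the one with the filter, so the call is no separate evidence of a fall.

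Genes of the amino acid stress response and the tRNA synthetases, which charge tRNAs with amino acids, rose together. Of 32 tested, 24 rose (75.0%) and 1 fell (3.125%), with a median of 0.54. ASNS (asparagine synthetase, a target of ATF4) was at 43.3, 43.7 and 51.4 CPM at 12 h and 167, 162 and 244 CPM at 24 h, by 2.05 ± 0.16 (adjusted p = 1.4e-11), after a mean of 102 CPM at 6 h. CHAC1, which degrades glutathione, rose from 9.15, 4.86 and 3.56 to 26.2, 21.8 and 40.6 CPM, by 2.33 ± 0.24 (adjusted p = 3.2e-09). YARS, the tyrosyl-tRNA synthetase, changed by 0.96 ± 0.11 and SHMT2, of mitochondrial one-carbon metabolism, by 0.74 ± 0.10 (adjusted p = 1.8e-08 and 5.6e-07). The 1 fall was DDIT3 (CHOP, a transcription factor of prolonged stress), at 62.7, 73.9 and 96.7 CPM and then 51.98, 50.3 and 64.6 CPM with overlapping libraries, and it was not called without B9 or without B11. In ASNS, CHAC1 and YARS B12 was the highest library of 24 h, and without B12 15 of the 32 rose.

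Of 24 genes of the unfolded protein response in the endoplasmic reticulum, 14 (58.3%) fell and 1 (4.17%) rose, with a median of -0.41. HSP90B1 (GRP94, the HSP90 of the endoplasmic reticulum) fell from 1332, 1243 and 1266 to 612, 609 and 692 CPM, by -1.005 ± 0.09 (adjusted p = 5.3e-11). PDIA4, a disulfide isomerase, fell from 493, 482 and 495 to 278, 265 and 301 CPM, and MANF, a secreted stress factor, from 106, 102 and 107 to 47.2, 58.1 and 46.5 CPM (adjusted p = 1.3e-08 and 2.8e-08). SDF2L1 changed by -0.93 ± 0.11 (adjusted p = 1.2e-07). The 1 rise was ATF6, a stress sensor of the endoplasmic reticulum, which was not called without B8. Of 24 heat shock chaperones, mostly of the cytosol and mitochondria, 12 rose and none fell by edgeR, with a median of 0.25; 1 fell at an unadjusted p under 0.05 and none by DESeq2. FKBP4, a cochaperone of HSP90, rose from 106, 65.9 and 66.9 to 147, 149.9 and 183 CPM, by 1.01 ± 0.14 (adjusted p = 2.3e-06). AHSA1, which activates HSP90, changed by 0.64 ± 0.10, and CCT3, of the chaperonin TRiC, by 0.52 ± 0.12 (adjusted p = 2.1e-05 and 0.0012). These 12 became 5 without B8, 5 without B12 and 7 without B7 and B12 together. In WT, 13 of the 24 genes of the unfolded protein response fell, and 3 of the heat shock chaperones rose and 3 fell.

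**Figure D3:**
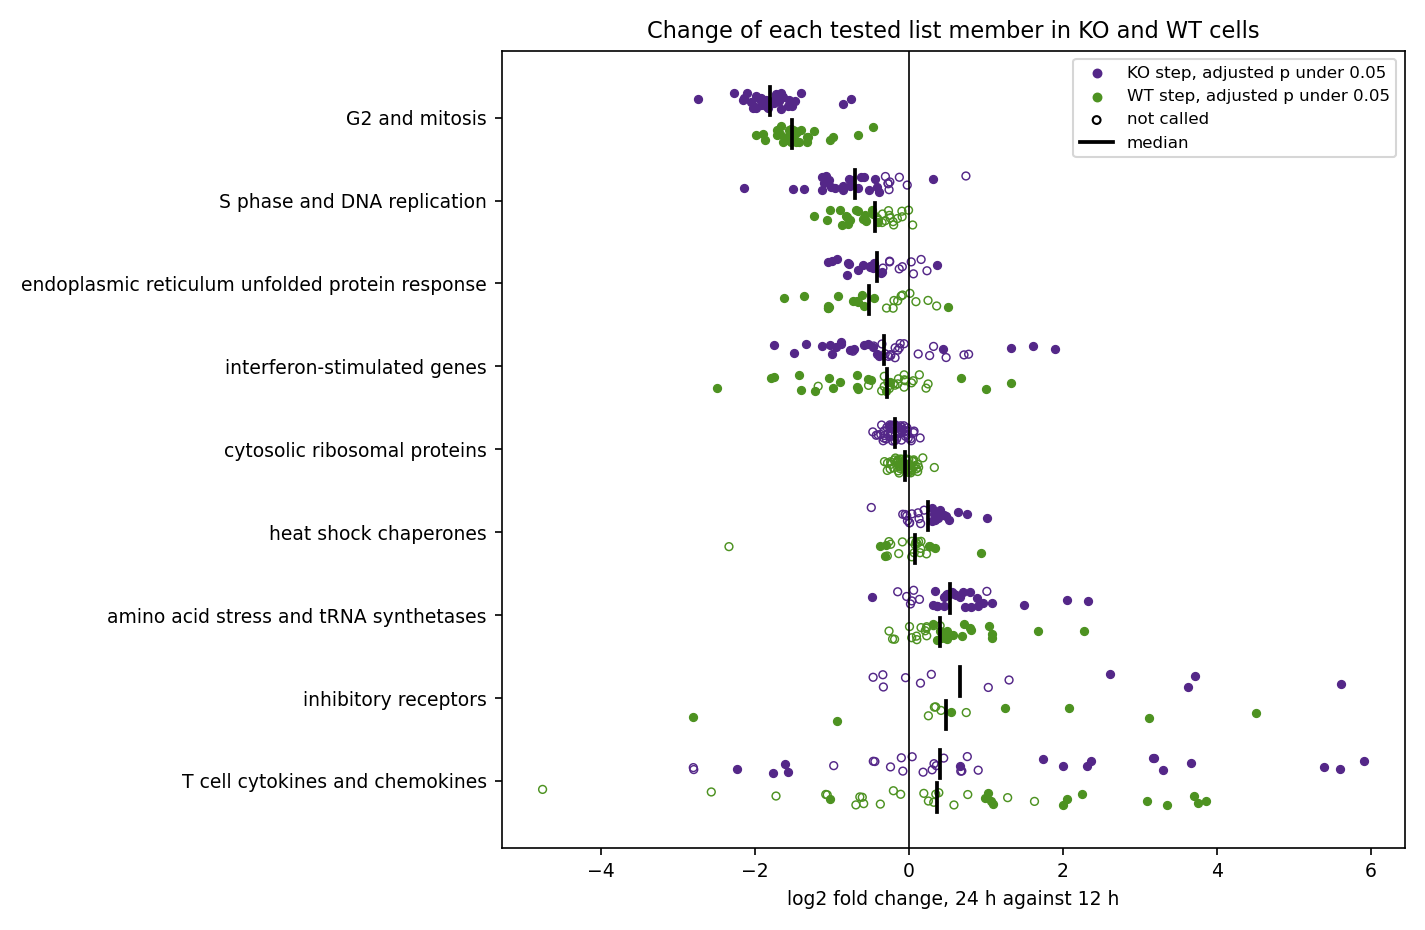
Log2 fold change of every tested member of 9 lists from 12 h to 24 h, in KO (purple, upper row) and WT (green, lower row), with filled points for an adjusted p under 0.05, open points for the rest and a bar at the median. All 32 points of G2 and mitosis lie below 0 in both, and no ribosomal protein is called in either.

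Interferon-stimulated genes fell in 17 of 40 (42.5%) and rose in 4 (10.0%), with a median of -0.33. IRF1, a transcription factor induced by interferon gamma, fell from 549.7, 703 and 769 to 225, 222 and 272 CPM, by -1.49 ± 0.13 (adjusted p = 7.6e-11). PARP9 and the GTPase GBP1 changed by -1.34 ± 0.14 and -1.02 ± 0.14 (adjusted p = 7e-09 and 1.7e-06). MX2, an antiviral GTPase, went the other way, from 12.8, 11.5 and 11.6 to 30.1, 29.9 and 30.1 CPM, by 1.33 ± 0.17 (adjusted p = 3.1e-07). Of 18 genes of MHC class I and its peptide loading, 4 (22.2%) rose, 7 (38.9%) fell and 7 were not called. HLA-F rose from 42.04, 34.3 and 37.3 to 98.7, 103 and 116 CPM, by 1.48 ± 0.11, and HLA-C by 1.07 ± 0.11 (adjusted p = 7.2e-12 and 4.3e-09), and HLA-B rose as well. Class I genes are alike in sequence, and the split of reads between them is uncertain. The 7 falls were TAP1, TAP2 and TAPBP of peptide loading, the immunoproteasome subunits PSMB8 and PSMB10, the peptidase ERAP2 and the regulator NLRC5. TAPBP (tapasin) went from 525, 632 and 571 to 289, 274 and 314 CPM, by -0.98 ± 0.09 (adjusted p = 6.6e-10). NLRC5, known as an activator of class I genes, was at 420.4, 487 and 411 CPM and then 234, 194 and 214 CPM. In WT 4 of the list rose and 7 fell as well.

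Genes of the T cell receptor and its proximal signalling gave 5 rises (18.5%) and 4 falls (14.8%) of 27, against 6.28% and 8.2% of all tested genes. LAT, the adaptor at the membrane, fell from 889, 1552 and 1725 to 650.4, 646 and 445 CPM, by -1.26 ± 0.19 (adjusted p = 4.7e-06), with B7 lowest at 12 h and B12 lowest at 24 h. ZAP70, the kinase upstream of LAT, rose from 481, 384 and 364 to 637, 595 and 559.6 CPM, by 0.54 ± 0.09 (adjusted p = 5.3e-05), and CD3E from 205, 196 and 166 to 282, 269 and 271 CPM, by 0.53 ± 0.11 (adjusted p = 0.00086). The rises numbered 3 without B8 and 3 without B9, and the falls 2 without B9 and 2 without B10; without B7 and B12 together 8 rose. Of 24 migration and adhesion genes, 3 (12.5%) rose and 7 (29.2%) fell. CD47, a signal against phagocytosis, fell from 304, 365 and 352 to 207, 189 and 158 CPM, by -0.88 ± 0.11 (adjusted p = 2.5e-07). ITGA1, a collagen receptor chain, changed by -1.62 ± 0.25 (adjusted p = 1.2e-05).

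Markers of other cell types were low, with few exceptions. Of 11 monocyte markers, LYZ was at 0 and 7 were under 1 CPM in all 6 libraries; their summed level was 30.4 to 46.4 CPM at 12 h and 18.0 to 26.2 CPM at 24 h, mostly CD68. The 9 B cell markers summed to 20.9 to 31.5 CPM and then 39.7 to 44.4 CPM, with BLK highest and called higher (log2 0.91 ± 0.15, adjusted p = 2.8e-05); 6 of them were under 1 CPM. The 12 markers of adherent lines summed to 761 to 1345 CPM and then 259 to 400.2 CPM, nearly all of it VIM (vimentin, also made by T cells), and COL3A1 was at 0. VIM was at 721, 1296 and 1266 CPM at 12 h and 354, 353 and 223 CPM at 24 h, by -1.82 ± 0.18 (adjusted p = 1.1e-09). The 10 erythroid and megakaryocyte markers were all under 1 CPM, with HBA1 and PPBP at 0. The part of other cells in the changes above was not tested.

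Over the same interval, 3202 genes changed in WT (14.9% of those tested), 1639 higher (7.6%) and 1563 lower (7.25%). The 2 steps share no library. Of the 1354 genes that rose in KO cells, 700 (51.7%) also rose in WT, which is 42.7% of the WT rises. Of the 1767 that fell, 876 (49.6%) also fell in WT, 56.0% of the WT falls. Of the KO rises 11 fell in WT by the test, and of the KO falls 8 rose. Called or not, the WT log2 change had the same sign in 1199 of the 1354 KO rises and 1610 of the 1767 KO falls. Across the 21554 genes, which are not independent replicates, the log2 changes of the 2 steps had a Pearson r of 0.274. CTSW rose by 3.90 ± 0.16 in KO and by 4.02 ± 0.16 in WT, and the difference of -0.12 ± 0.20 (SE) did not pass the test (adjusted p = 0.87).

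The step differed between KO and WT in 226 genes (1.05%), higher in KO in 126 (0.585%) and lower in 100 (0.464%). ADAM19, a membrane metalloprotease, had the smallest p. It rose in KO from 223, 159 and 145 to 253, 243 and 336 CPM and fell in WT from 143, 134 and 118 to 41.7, 48.02 and 54.7 CPM, and the difference of the log2 changes was 2.11 ± 0.20 (adjusted p = 1.6e-07). RASGEF1B, an exchange factor for Ras-like GTPases, rose in KO from 22.8, 16.3 and 15.3 to 81.3, 80.5 and 132 CPM and was at 49.9, 47.7 and 38.6 and then 42.96, 45.2 and 69.3 CPM in WT, a difference of 2.22 ± 0.27 (adjusted p = 4.7e-06). ID1, an inhibitor of bHLH factors, rose in KO and fell in WT, with a difference of 1.42 ± 0.19 (adjusted p = 5.3e-05). CHI3L2, a chitinase-like protein, rose in both, from 194, 224 and 232 to 1467, 1513 and 1549 CPM in KO and from 801, 756 and 744 to 2037, 2063 and 2691 CPM in WT, and the difference was 1.24 ± 0.14 (adjusted p = 2e-06). ANXA1 (annexin A1) and SCG2 (secretogranin II) fell in both, by less in KO, with differences of 1.33 ± 0.15 and 1.30 ± 0.17 (adjusted p = 2e-06 and 2.2e-05).

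Of the genes whose step was lower in KO, RRM2 fell in both. In WT it went from 203, 194 and 210.5 to 112, 118 and 120.0 CPM, and the difference to the KO step was -1.35 ± 0.15 (adjusted p = 2e-06). It was the only member of the lists for S phase and for G2 and mitosis whose step was called different. BIRC3, already described, was at 116, 131 and 122 and then 78.1, 79.9 and 122 CPM in WT, a difference of -1.32 ± 0.19 (adjusted p = 8.5e-05). Its 12 h libraries were higher in KO than in WT without overlap. The cytoskeletal linker PLEC, ARFGAP3 (of vesicle transport) and the pseudogene AMZ2P1 fell in KO and rose in WT, with differences of -1.63 ± 0.23, -1.04 ± 0.13 and -1.62 ± 0.19. DUSP6, a phosphatase of ERK, went from 29.1, 54.3 and 69.3 to 19.9, 20.6 and 11.6 CPM in KO and from 13.8, 10.9 and 18.6 to 37.4, 36.2 and 13.9 CPM in WT, a difference of -2.57 ± 0.40 (adjusted p = 0.00031). The libraries numbered 12, A12 and B12, were the lowest of their groups in DUSP6.

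Of the 12 largest rises, 7 were larger in KO by this test, against 0.585% of all tested genes. The 12 were chosen for their KO change, which is part of the difference. The count therefore favours KO by selection and is description only. GRIK4 was at 0.632, 0.0963 and 0 CPM and then 7.40, 6.03 and 16.9 CPM in KO and at 1.09, 1.88 and 0.433 and then 0.354, 0.935 and 1.91 CPM in WT, a difference of 5.45 ± 0.92 (adjusted p = 0.00085). SDC4 reached 3.89, 7.80 and 12.2 CPM in WT, and IL1RN 1.89, 2.57 and 6.67 CPM, with differences of 3.92 ± 0.79 and 3.12 ± 0.62 (adjusted p = 0.0078 and 0.0063). The call for SDC4 was lost without A8 and with DESeq2 (adjusted p = 0.056), and that for IL1RN without A7. Both were also lost in edgeR with only the 12 libraries of 12 h and 24 h (adjusted p = 0.053 and 0.077). ZBTB16 started from another level: it was at 28.1, 25.6 and 23.2 CPM at 12 h in WT and at 153, 152 and 164 CPM at 24 h, above KO at both times, while the step was larger in KO by 2.11 ± 0.40 (adjusted p = 0.0028). IL2RB, which rose in KO, was at 4.57, 4.86 and 2.91 and then 4.54, 3.35 and 5.08 CPM in WT and not called there, a difference of 2.18 ± 0.35 (adjusted p = 0.00046). For XCL2, CD200 and IL2 the differences, 2.15 ± 0.81, 1.11 ± 0.68 and 0.07 ± 0.63, did not pass (adjusted p = 0.23, 0.53 and 0.98). Without B7 the differences of XCL2 and CD200 were called, at 4.46 (adjusted p = 0.00032) and 3.57 (adjusted p = 0.0011). Both were also called with all libraries when no filter on low counts was used, at 2.12 (adjusted p = 1.3e-29) and 1.08 (adjusted p = 4.4e-05). The differences were close to those with the filter, and the cause of the smaller adjusted p was not tested. These 2 calls are no separate evidence, since XCL2 varied widely, at 11.4 ± 15.8 CPM (SD, n = 3) in KO at 12 h. The count of 226 rested on single libraries: it was 597 without B7, 340 without A12, 146 without A10, 130 without B12, 128 without A11, 124 without A8, 122 without A7, 110 without B8 and 100 without B9. Without A8 the WT rises numbered 1057.

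**Figure D4:**
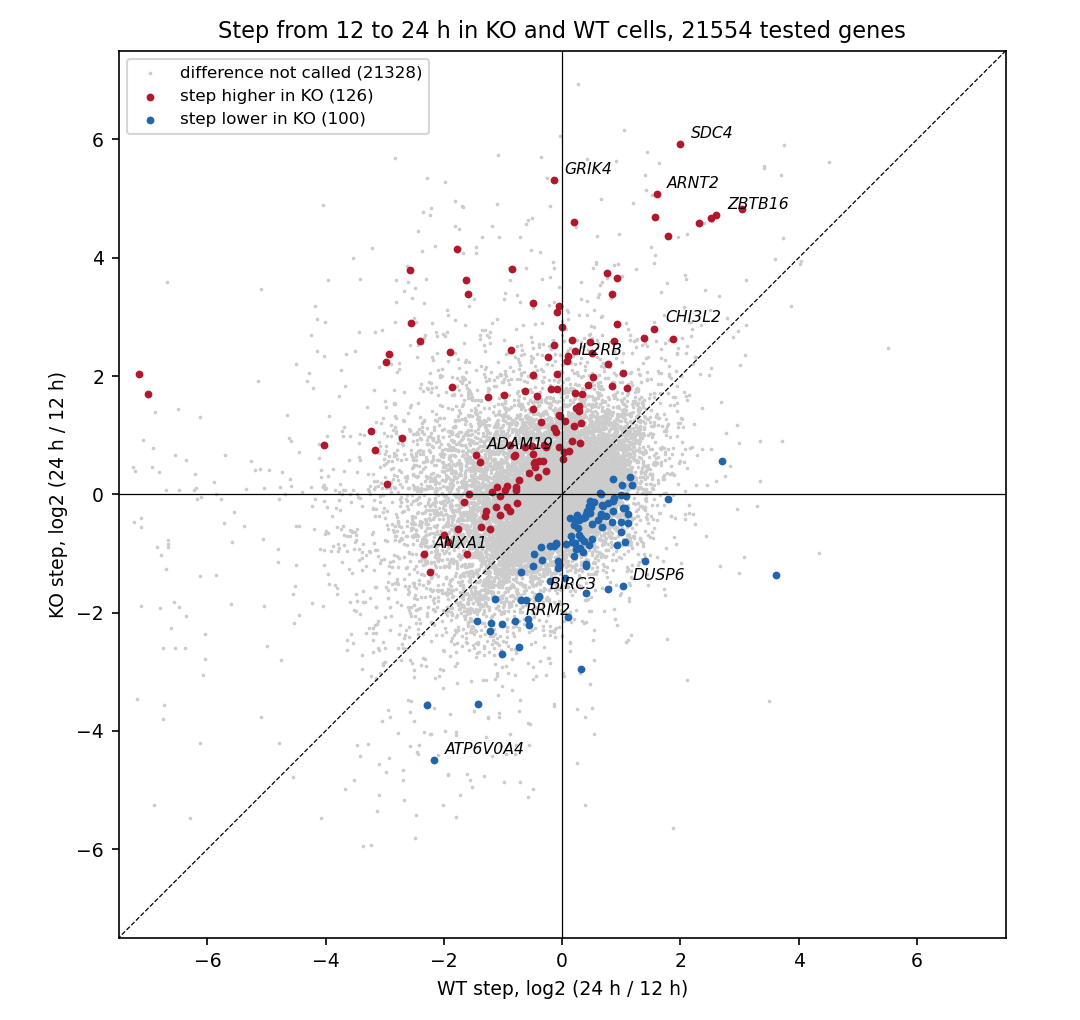
Log2 fold change from 12 h to 24 h in KO (vertical) against WT (horizontal) for the 21554 tested genes, as fitted. Grey points are genes whose step did not differ by the test, red points the 126 whose step was higher in KO and blue points the 100 lower in KO; the dashed line marks equal steps, and GRIK4, SDC4 and ARNT2 lie far above it.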

How the data were processed

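Expression was measured by RNA-seq in 30 libraries, 3 in each of 10 groups. The authors deposited estimated counts per gene symbol; 195 of 54300 symbols held values that were not whole (0.177% of values), and counts were rounded. Per the submitters' processing notes, cutadapt, STAR and DESeq2 were used with GRCh37; their versions are absent from those notes, and for the counting tool and annotation the sources used here name none. The labels name no molecular identifiers, so counts need not be independent molecules. All 30 libraries, with 5.64 to 28.2 M counts each, were fitted together in edgeR 4.0.16 (R 4.3.3) by group, with TMM scaling and a filter (filterByExpr, minimum count 10), and tested by the quasi-likelihood F test at an adjusted p under 0.05. The SE of a log2 change was taken from the change and its F. CPM values are TMM-scaled. Alternatives were DESeq2 1.42.0 and its size factors, other filters, fewer libraries and a replicate block; leaving out B7 and B12 together was added after seeing the data.

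The genes named are CD69, IFNG, IL2, SLAMF6 and TBX21; the 12 largest called rises and falls with a mean of at least 10 CPM in 1 of the groups and no overlap of libraries, clone names left out; up to 4 called members of each of 34 gene lists; and for the difference of the steps the 6 smallest p each way. The lists and members were chosen with earlier results of these data known, and the histone list after its values were seen. CCL4, CSF2, LTB, IL8, OSM, IL2RA, PRF1, GZMA, CTLA4, SH2D1A, MCM6, DDIT3, ATF6, TNFAIP3, EGR2, NR4A2, NAB2, NFATC1, HLA-B, TAP1, TAP2, PSMB8, PSMB10, ERAP2, NLRC5, BLK, CD7, PTPRC and CD3D were named after their values were seen. Some items are not reported here. Gene positions are from GENCODE 29 (GRCh38), not the build of the authors, and promoters from RefSeq (GRCh38.p14).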

Additional observations from a re-analysis of the deposited data

Results flagged for a closer look

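For 33 of 144 named genes, the log2 change from 12 h to 24 h differed between KO and WT by edgeR's interaction test (adjusted p under 0.05). The 144 were named by rule, except HIST1H2BF, HIST1H1B, HIST1H3I and HIST1H2AG, which were added after their values were seen. HIST1H2BF is among the 33. Many of the 144 were named for their KO change or for this difference itself. Their share is therefore not comparable with that of all tested genes. The values below are the KO change minus the WT change, and no explanation of them was tested. In 18 the step was higher in KO. Among these were 7 of the largest rises, with GRIK4 at 5.45, SDC4 at 3.92, ARNT2 at 3.48, IL1RN at 3.12, EDARADD at 2.15, ZBTB16 at 2.11 and CYP4F35P at 1.79. Signalling and surface genes were RASGEF1B at 2.22, IL2RB at 2.18, ADAM19 at 2.11, ITGB1 (an integrin chain) at 0.62 and CD1E (a lipid-presenting molecule) at 0.83. The others were CCND2 at 2.12, ID1 at 1.42, ANXA1 at 1.33, SCG2 at 1.30, CHI3L2 at 1.24 and HSP90B1 at 0.61.

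In 15 genes the step was lower in KO. The regulators among them were DUSP6 at -2.57, BIRC3 at -1.32, KLF6 at -1.18 and RUNX3 at -1.18. Genes of T cell development and activation were DNTT at -1.84, THEMIS (a T cell receptor signalling protein) at -1.57 and CD83 at -0.76. Of the largest falls ATP6V0A4 stood at -2.33, CLU at -1.68 and SH3RF2 at -1.28. Genes of replication were HIST1H2BF at -2.13 and RRM2 at -1.35. The rest were PLEC at -1.63, AMZ2P1 at -1.62 and ARFGAP3 at -1.04. Under 19 alternatives 18 of the 33 stayed called in each, and 15 lost the call in at least 1. Of these 15, 12 lost it when a single library was left out. They were CLU, CYP4F35P, DNTT, EDARADD, HIST1H2BF, IL1RN, ITGB1, KLF6, RUNX3, SDC4, SH3RF2 and THEMIS. DNTT and SDC4 also lost it with DESeq2 (adjusted p = 0.056 for each). CLU and SH3RF2 also lost it in edgeR with DESeq2's size factors. ARNT2, CCND2 and HSP90B1 lost it only when the fit was limited to the 12 libraries of 12 h and 24 h.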

How the results depend on the processing

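The 3121 calls of the KO step became 3140 with DESeq2's size factors, 3529 with DESeq2, 3311 with a filter of 1 CPM, 2745 without a filter, 2262 in a fit of the 6 libraries alone and 2206 to 3065 with 1 library left out. In none of these did a shared call change sign. The falls ranged from 1163 without B9 to 1738 without B7. Of 144 named genes 141 were called, and 123 of these stayed called under all 12 alternatives; SLAMF7, THEMIS, CD68 and HLA-DRB1 were among the 18 that did not. The 226 genes whose step differed between KO and WT were 543 without a filter (301 higher in KO, 242 lower), 391 with DESeq2 (252 higher), 69 with only the 12 libraries of 12 h and 24 h (43 and 26), 378 without B7 and B12 together (194 and 184), and 100 (without B9) to 597 (without B7) with 1 library left out. Those higher in KO ranged from 60 to 293 and those lower from 38 to 304 over the left-out libraries. The WT rises were 1057 to 1748 with 1 library left out. The cause of these shifts was not tested. In the lists, heat shock rises numbered 6 and activation receptor rises 5 in the fit of 6 libraries, and without a filter 7 interferon-stimulated genes and 7 early factors rose. Whether the replicate numbers 7 to 12 that KO and WT share pair the libraries was not settled. Of 6 pairs 1 correlated above 0.1 (range -0.015 to 0.126), and 4 of 6 correlated best with their own number. With that number as a replicate block, the same 12 libraries gave 216 genes (138 higher in KO, 78 lower), against 69 without the block. The differences of SLAMF6 (0.66), XCL2 (3.05) and KIF20A (-0.79) were among those called with the block. KO libraries of 12 h and 24 h share no number. Counting depth limits genes near 1 CPM, of which a library here held 16.3 to 21.1 counts.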

Other observations

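Of 27 feedback regulators of MAPK signalling and calcium, 2 (7.41%) were higher and 6 (22.2%) lower in the KO step, against 6.28% and 8.2% of all tested genes. RGS16, which shortens signalling by G proteins, rose from 40.5, 27.5 and 24.8 to 143, 136 and 268 CPM, by 2.56 ± 0.27 on the log2 scale (adjusted p = 9.4e-09, edgeR's quasi-likelihood test). DUSP5, a nuclear phosphatase of ERK, fell from 15.3, 15.4 and 21.9 to 3.13, 4.64 and 4.49 CPM, by -2.10 ± 0.27 (adjusted p = 2.8e-07). PPP3CA, a catalytic subunit of calcineurin, changed by -0.74 ± 0.14 (adjusted p = 0.00013). The 2 rises became 4 without B7 and 1 without B8, B9 or B12. Of 23 genes of the BCL2 family and cell death, 3 (13.0%) rose and 8 (34.8%) fell, and 5 fell without B9 or without B12. FAS, a death receptor, changed by -0.81 ± 0.13, and BIK, a death-promoting member, by 0.91 ± 0.13 (adjusted p = 1.3e-05 and 1.8e-06). Among 21 tested genes of recombination and of thymocytes, 3 (14.3%) were called higher and 5 (23.8%) lower. The falls numbered 3 without B8, B9 or B10 and 2 without B12. DNTT, the terminal transferase of V(D)J joining, fell from 7.25, 9.67 and 10.7 to 2.05, 1.33 and 1.23 CPM, by -2.58 ± 0.34 (adjusted p = 4.7e-07). LMO2, a T cell leukaemia factor, was at 0.292, 0.144 and 0 CPM, 9 counts in all, and then at 1.95, 1.02 and 2.42 CPM (log2 3.54 ± 0.69, adjusted p = 0.00026).

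Of 28 glycolysis and hypoxia genes 6 (21.4%) rose and 3 (10.7%) fell. HK2, a hexokinase, rose from 29.5, 14.8 and 14.2 to 46.5, 46.3 and 60.2 CPM, by 1.39 ± 0.26, and PKM, the pyruvate kinase, fell from 5391, 4600.3 and 4652 to 2888, 2708 and 3509 CPM, by -0.69 ± 0.10 (adjusted p = 0.00015 and 4.9e-06). PRDX1, a peroxiredoxin, rose from 3076, 2258 and 2272 to 5222, 5876 and 4885 CPM, by 1.07 ± 0.14 (adjusted p = 8.1e-07). It was the 1 rise (7.69%) among 13 thioredoxin and arrestin genes, of which 2 (15.4%) fell. Of 36 nuclear genes of oxidative phosphorylation 2 (5.56%) rose and 3 (8.33%) fell, shares near those of all tested genes; the rises numbered 1 without B7, B8 or B11, and the falls 1 without B9. Of 15 mitochondrially encoded transcripts 3 (20.0%) rose, and 1 without B9 or without B12. Of 32 genes of cholesterol and fatty acid synthesis 2 (6.25%) rose and 3 (9.38%) fell, also near those shares; the rises ranged from 0 without B12 to 4 without B7 or B11, and 1 fell without B8, B9, B11 or B12. None of 6 cholesterol efflux genes was called by edgeR or DESeq2, and 1 was higher at an unadjusted p under 0.05. Of 31 ribosome biogenesis genes 1 (3.23%) rose and 1 (3.23%) fell, FBL (fibrillarin) by -0.65 ± 0.09 (adjusted p = 2.2e-06), and the rises numbered 8 without B7. None of 55 cytosolic ribosomal proteins was called by edgeR in the main fit, and DESeq2 called none. In edgeR alternatives 4 were called lower without a filter, 3 without B11, 2 without B7 and 1 without B8. At an unadjusted p under 0.05 in the main fit 11 were lower, and 5413 of all 21554 tested genes passed that threshold in either direction. Of 8 MHC class II genes 2 rose, HLA-DRB1 with 0.730, 0.337 and 0.701 CPM and then 2.00, 1.75 and 0.691 CPM and overlapping libraries, and no call remained without B7 or without B10.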
